A study of Mus musculus with 16 samples.

Results

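The genes described here are 8 genes of the pituitary gland and of the secretory granule: Gh, Prl, Pomc, Cga, Gnas, Chga, Chgb and Scg2. Their probe sets were taken from the platform annotation by gene symbol, which gave 13 of the 12422 probe sets left after the array's control probe sets were set aside. The genes were grouped after some of them stood out on 2 arrays of mouse spinal cord titled MSS-Spa-M6moF, so the difference of those 2 arrays from the 14 others is described and was not tested. Gnas has 3 probe sets, Cga, Chga and Chgb have 2 each, and the other 4 genes have 1 each. Contrasts among the 14 other arrays, a different comparison from the one that set the group, were tested.

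The series measured RNA of mouse spinal cord with 16 arrays of 1 colour each. The 2 arrays titled Spa-M6moF are of spastic mice of 6 months titled female; the M before the age is left uninterpreted. The 4 other spastic arrays are titled female and 2 months (2 arrays), male with the tag sev and 3 months (1 array) and male and 3+ months (1 array). The 2 B6C3Fe arrays, of a hybrid mouse stock, are titled male and 1 month. The 8 control arrays are of mice of 9 and 12 months, with 2 arrays for each titled sex at each age. The spastic mutation is recessive and lies in Glrb, the gene of the glycine receptor's beta subunit, and spastic mice are stiff and tremble. The titles name no other allele and no treatment. Spastic, B6C3Fe and control mice therefore differ in age as well as in genotype or stock, and these cannot be told apart across them. The M6mo and the other spastic arrays share the spastic title and differ in titled age. Some titles come as a pair, a and b, and the labels do not say whether a pair is 2 animals. Each pair was averaged, and the p-values rest on the spread between the titled samples, most of which differ in titled sex or age.

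Glrb, the gene changed in spastic mice, had an intensity of 1049 and 1567 on the M6mo arrays and 968.9 to 2218 on the other spastic arrays, against 7758 and 8078 on the B6C3Fe arrays and 6670 to 10090 on the control arrays. Its levels thus matched the titles on all 16 arrays. Sex did not. Xist, the RNA of the inactive X chromosome, read 1327 and 1488 on the 2 spastic arrays titled male, against 17.3 to 62.61 on the control arrays titled male, and Eif2s3y, a Y-linked gene, read 9.318 and 20.76 there, against 362.9 to 423.4. These 2 arrays are called by their titles below, and the contrast of other spastic samples with controls is repeated without them. The other contrasts also use them, for the spread and the sex term, and were not repeated without both. The deposited intensities had been scaled alike on every array, with medians of 289 to 383.6. The M6mo arrays had a longer bright end. Their highest intensities were 62775 and 63072, against 16667 to 30445 on the others, and 61 and 65 probe sets exceeded 20000, against 0 to 33. RNA integrity, read as the signal at the 3-prime over the 5-prime end of 4 control genes, lay within the range of the other 14 arrays on both M6mo arrays.

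The anterior pituitary makes a small number of peptide hormones in separate cell types. Gh encodes growth hormone of the somatotrophs, Prl encodes prolactin of the lactotrophs, and Pomc encodes the precursor of corticotropin, melanocortins and beta-endorphin in corticotrophs, and is also made by some hypothalamic neurons. Cga encodes the alpha subunit that thyrotropin, luteinizing hormone and follicle-stimulating hormone share. Chga, Chgb and Scg2 encode granins, acidic proteins packed with hormones and peptides into the dense-core granules of endocrine cells and neurons, and spinal cord neurons make them. Gnas encodes the stimulatory G protein alpha subunit, which couples receptors such as the one for growth hormone-releasing hormone to adenylyl cyclase, and its locus also gives imprinted transcripts.

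The bases before the transcript start show 2 kinds of site among these genes, and they are printed for the 4 genes that hold one. Promoters were read from a RefSeq table of GRCm38.p6, which matched 7 of the 8 genes, all but Gh. Capitals mark TATNCAT, in either orientation, in Prl, a core bound by the pituitary factor POU1F1, and TGACGTCA or its shorter form TGACGT, the cAMP response element, in the granins. Both motifs were chosen after the sequences had been seen.
Prl (chr13:27057320-27057569, plus strand): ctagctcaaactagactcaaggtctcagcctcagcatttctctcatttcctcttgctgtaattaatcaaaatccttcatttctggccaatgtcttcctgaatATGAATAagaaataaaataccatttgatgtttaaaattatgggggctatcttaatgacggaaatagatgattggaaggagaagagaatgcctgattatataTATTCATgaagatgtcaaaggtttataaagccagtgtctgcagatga
Scg2 (chr1:79440027-79440276, minus strand): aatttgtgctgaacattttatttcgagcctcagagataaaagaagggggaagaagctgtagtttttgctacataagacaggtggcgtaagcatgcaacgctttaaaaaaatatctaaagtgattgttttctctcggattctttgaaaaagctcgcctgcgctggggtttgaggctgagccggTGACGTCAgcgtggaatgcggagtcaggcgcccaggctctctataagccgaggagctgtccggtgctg
Chgb (chr2:132781392-132781641, plus strand): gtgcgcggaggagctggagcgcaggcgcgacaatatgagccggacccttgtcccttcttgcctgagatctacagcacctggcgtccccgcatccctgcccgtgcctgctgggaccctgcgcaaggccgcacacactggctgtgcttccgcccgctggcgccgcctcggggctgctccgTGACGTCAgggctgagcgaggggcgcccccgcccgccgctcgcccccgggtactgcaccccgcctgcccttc
Chga (chr12:102554691-102554940, plus strand): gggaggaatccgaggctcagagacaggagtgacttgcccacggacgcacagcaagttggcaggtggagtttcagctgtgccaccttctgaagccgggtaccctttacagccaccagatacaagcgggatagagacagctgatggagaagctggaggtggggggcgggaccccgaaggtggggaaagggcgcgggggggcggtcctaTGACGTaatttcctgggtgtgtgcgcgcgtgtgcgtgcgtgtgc
Each sequence is the 250 bases before the start, 5-prime to 3-prime on the gene's own strand, and position -1 is the base just before the start. Prl held TATNCAT with first bases at -148 and -47. Scg2 held TGACGTCA from -68 and Chgb from -72, while Chga held only the shorter TGACGT, from -44. TATNCAT occurred in 7.92% of the 32851 promoters of the table on either strand, TGACGTCA in 1.55% and TGACGT in 6.47%, the last count including every TGACGTCA. The windows of Cga, Pomc and the 4 starts of Gnas held neither motif. A match is a description of the letters and no measure of binding.

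Growth hormone RNA was far above its level elsewhere on both M6mo arrays. The Gh probe set (92783_at) read 9420 and 9817 on the M6mo arrays. It read 760.1, 531.7, 535.9 and 734.1 on the other spastic arrays, 564.4 and 774.3 on the B6C3Fe arrays, and 931.7, 1149, 1922, 1324, 1232, 880.9, 614.3 and 653.8 on the control arrays. The M6mo arrays did not overlap any other array, and the lower of the 2 was 4.90-fold above the highest of the 14. The mean was 11.5-fold that of the 14 others on the log2 scale, and 15.2-fold that of the other spastic arrays, 14.6-fold that of the B6C3Fe arrays and 9.41-fold that of the controls.

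Prolactin had the widest gap to the other arrays of any probe set. The Prl probe set (92803_at) read 8169 and 8560 on the M6mo arrays. It read 52.31, 215.3, 50.7 and 246.4 on the other spastic arrays, 521.5 and 526.9 on the B6C3Fe arrays, and 316.7, 423.5, 632.2, 507.9, 800.2, 800.9, 103.1 and 55.15 on the control arrays. Of the 14 others, 3 lay at or under the floor of 60.9, below which values carry no order, and these were 2 spastic arrays and 1 control array. The lower M6mo array was 10.2-fold above the highest other array. The mean log2 difference was 4.97, or 31.3-fold, and since 3 of the arrays sit at the floor this is a lower estimate. The spread among the others was wide, from 50.7 to 800.9, and all 14 lay below both M6mo arrays.

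Pomc and Cga were also higher on both M6mo arrays, by a smaller margin. The Pomc probe set (94026_at) read 567.3 and 680.5 on the M6mo arrays, against 101.7 to 437.4 over the 14 others, with a median of 257.1. The mean was 2.55-fold higher, and the lower M6mo array was 1.30-fold above the highest other array, a 12-month male control at 437.4. Cga read 558.5 and 659.4 on probe set 162502_f_at, against 167.5 to 533 on the others with a median of 290.9. Cga read 157.4 and 232.1 on probe set 94700_at, against 23.51 to 142.2 with a median of 72.31. The means were 2.12-fold and 2.39-fold higher, and the lower M6mo array exceeded the highest other by 1.05-fold and 1.11-fold. On 94700_at 3 of the 14 other arrays were at the floor. Both Cga probe sets thus set the M6mo arrays apart from the rest, narrowly.

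**Figure D1:**
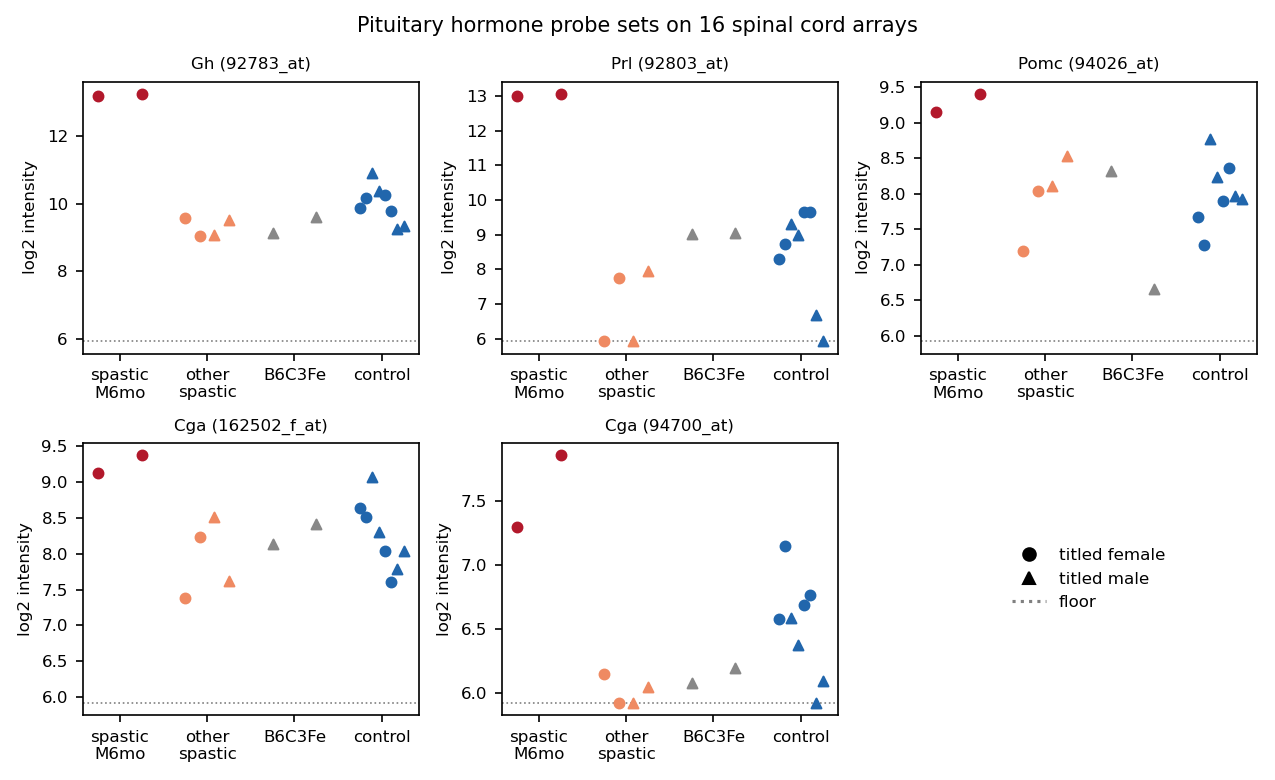
Log2 intensity of the 5 hormone probe sets on each array, in columns of spastic M6mo, other spastic, B6C3Fe and control arrays; circles are arrays titled female, triangles arrays titled male, and the dotted line is the floor of 5.93. Both M6mo arrays lie above every other array in all 5 panels, by 2.29 and 3.35 for Gh and Prl and by 0.07 to 0.38 for Pomc and Cga.

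Gnas differed between its probe sets. The brightest, 93271_s_at, read 38899 and 40041 on the M6mo arrays. It read 9523, 10015, 9241 and 10207 on the other spastic arrays, 12469 and 13526 on the B6C3Fe arrays, and 17006, 17597, 14545, 8358, 11321, 15876, 15771 and 23575 on the control arrays. The mean was 3.05-fold higher and the lower M6mo array was 1.65-fold above the highest other. The 2 dimmer Gnas probe sets did not separate the arrays. Probe set 92672_at read 303.2 and 271.1 on the M6mo arrays, against 175.5 to 720.5 on the others, and 102082_at read 347.3 and 314, against 222 to 610.6. The probe sets of 1 gene thus disagree, and the annotation names no transcript for them here.

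The granins did not follow the hormones. Chga on 92422_at read 4236 and 3714 on the M6mo arrays, against 1730 to 3856 on the others, and 2 of the 14 others lay above the lower M6mo array. Chga on 162192_f_at read 1785 and 1073, against 806.6 to 1613. Chgb on 92841_f_at read 7291 and 9612 on the M6mo arrays, against 3329 to 10729 on the others, where the 2 B6C3Fe arrays were lowest at 3441 and 3329. Scg2 read 3681 and 3213, against 2640 to 5145. Chgb on 92842_r_at was at the floor on both M6mo arrays and on 8 of the 14 others, and gives no level. Thus no granin probe set separated both M6mo arrays from all others.

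**Figure D2:**
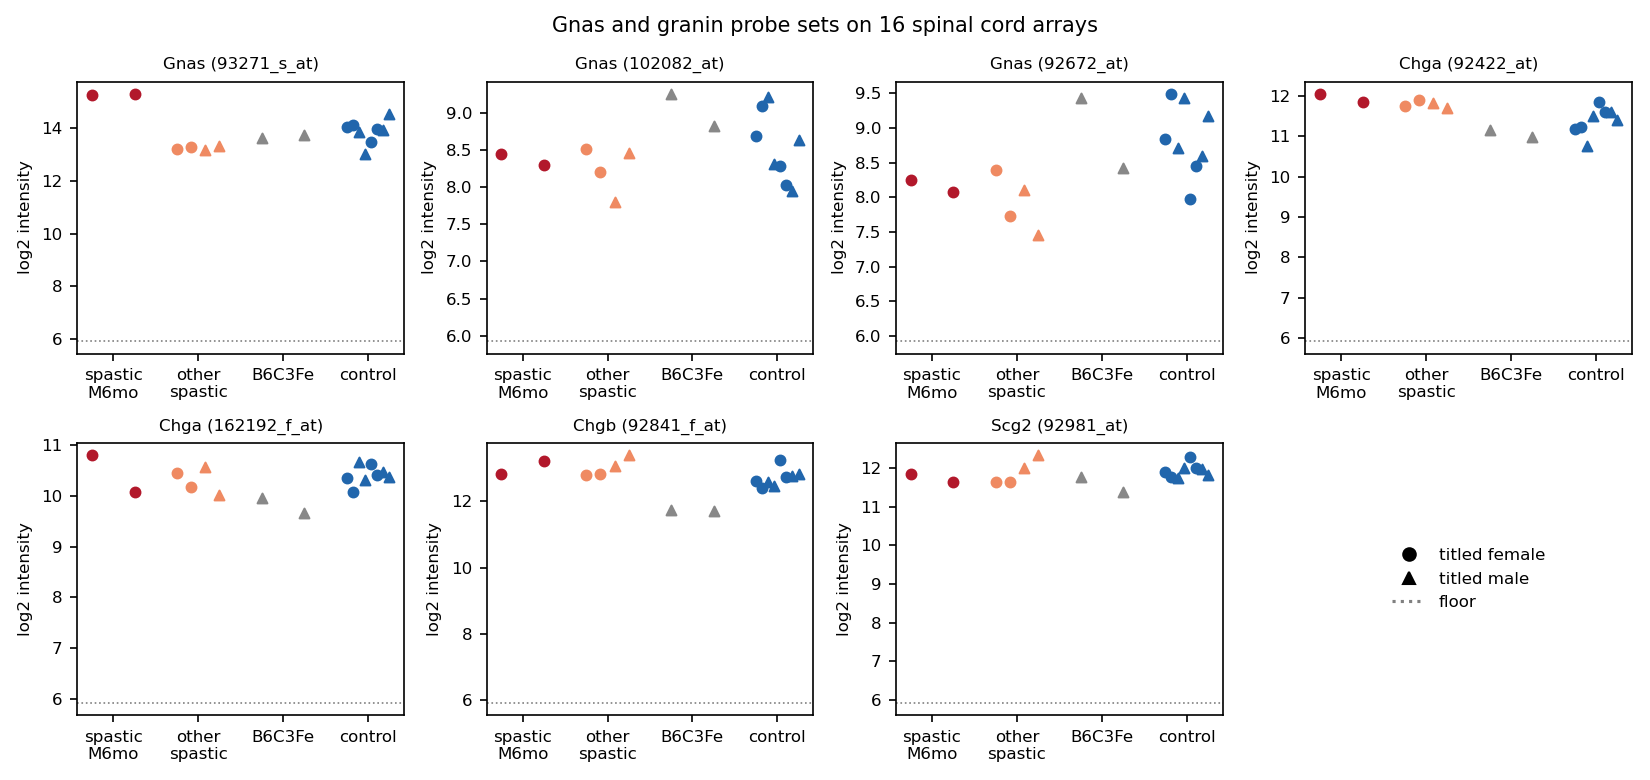
Log2 intensity of 3 Gnas, 2 Chga, 1 Chgb and 1 Scg2 probe set on each array, with groups, symbols and floor as in the hormone plot. Both M6mo arrays lie above all others only on Gnas 93271_s_at, and the B6C3Fe arrays are the lowest for Chgb.

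Over the group, 6 of 13 probe sets had both M6mo arrays above all 14 others, and 5 of 8 genes had such a probe set. No member had both arrays below. The same position held for 2.51% of all 12422 probe sets above and 2% below, and since the members were picked on these arrays nothing is read from the ratio. Beside the 4 other spastic arrays alone, 6 of 13 member probe sets had both M6mo arrays above, where 7.3% of all probe sets did and 8.48% had both below. Beside the 8 controls alone it was again 6 of 13, where 7.63% of all lay above and 10.5% below. Ranked by the gap between the lower M6mo array and the highest other, Prl was 1 and Gh 2 of all 12422 probe sets, Gnas 93271_s_at was 17, Pomc 47, and the Cga probe sets 136 and 211. Just inside the boundary was Cga 162502_f_at with a gap of 0.07 on the log2 scale, and just outside it was Chga 92422_at with -0.05.

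Brightness changes what such a position amounts to. Of the 143 probe sets whose median on the other arrays was at least 10000, 41.3% had both M6mo arrays above all others and 0 had both below, with a median difference of 0.33 on the log2 scale. Among the 3492 probe sets with medians of 300 to 1000 it was 1.29%, with a median difference of -0.10. Gnas 93271_s_at was bright and ranked 3 of 143 in difference within its class. Gh ranked 2 and Prl 1 of 3492 in theirs, Pomc 13 and Cga 162502_f_at 23 of 2540, and Cga 94700_at 14 of 3315. After quantile normalization, which gives all arrays one distribution, the Gnas difference was 0.77 in place of 1.61, while Gh was 3.34, Prl 4.83, Pomc 1.47 and Cga 1.18 and 1.53, so Gnas moved by more than 1.5 times and the hormones did not.

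**Figure D3:**
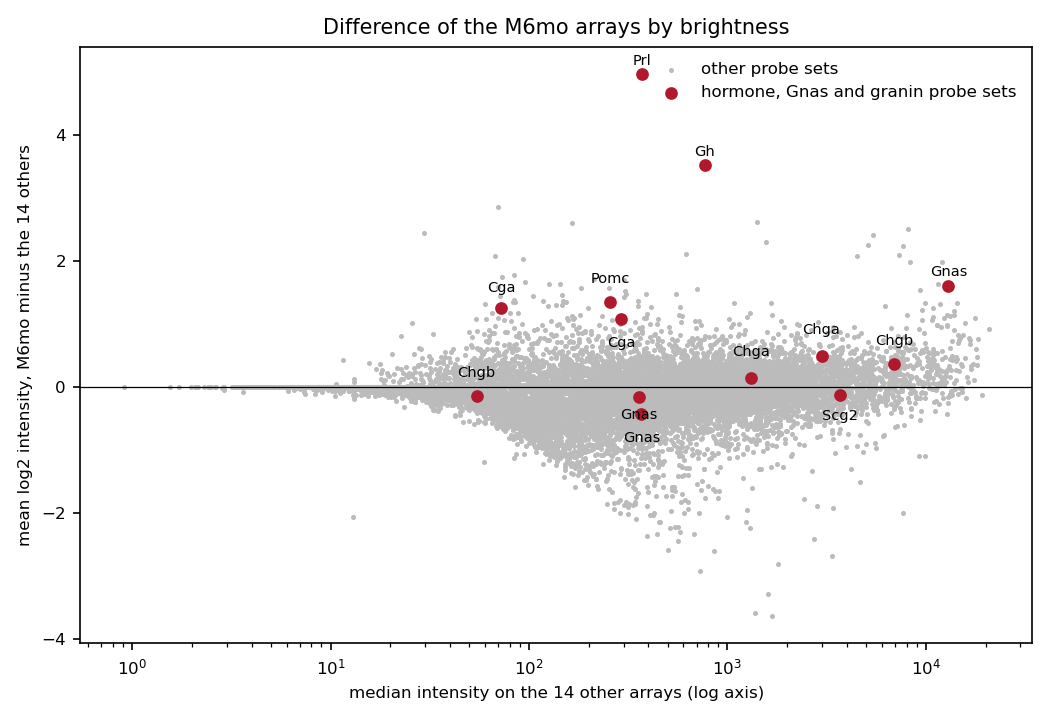
Mean log2 difference of the M6mo arrays from the 14 others against the median intensity on the others (log axis), for all probe sets in grey and for the 13 probe sets of the 8 genes in red. Prl and Gh lie apart from the cloud, at 4.97 and 3.52, and the brightest probe sets lie mostly above 0.

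The M6mo arrays lay close to each other for Gh, Prl and the brightest Gnas probe set. Their log2 difference was 0.06 for Gh, 0.07 for Prl and 0.04 for Gnas 93271_s_at, against 0.09 to 0.54, 0.00 to 0.76 and 0.05 to 0.80 over the 5 other pairs of arrays with a shared title. It was 0.40 for Chgb 92841_f_at, against 0.04 to 0.53, and 0.73 for Chga 162192_f_at, against 0.09 to 0.35. Correlation with Gh over the 16 arrays was a description only, since the M6mo arrays carry most of the range. It was 0.87 for Prl, 0.88 for Cga 94700_at, 0.65 for Pomc and 0.76 for Gnas 93271_s_at, and over the 14 others alone 0.60, 0.74, 0.14 and 0.07. For Chga 92422_at it was 0.26 over 16 arrays and -0.46 over 14.

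Other pituitary and endocrine genes give the setting. Over all 12422 probe sets, 2.51% had both M6mo arrays above all others, so a count of 0 in lists this short is near that share. Of the 3 further pituitary hormone subunits, Tshb, Lhb and Fshb, 0 had both M6mo arrays above all others. Their summed intensity was 1041 and 1045 on the M6mo arrays, against 865.4 to 1248 on the others. Most of that sum was Lhb, at 821.4 and 835.5 against 752.7 to 995. Tshb, the beta subunit of thyrotropin, read 170 and 87.25, against 17.53 to 129.9. It was at the floor on 12 of the 14 others and on neither M6mo array. The mean log2 difference from the others was 0.85 for Tshb, -0.08 for Lhb and -0.29 for Fshb. Of 6 pituitary transcription factors with a probe set, 0 had both M6mo arrays above, with sums of 3916 and 5051 against 3516 to 6293, and Hesx1 was at the floor on both M6mo arrays and on 13 of the 14 others. Of the 7 receptors that regulate the pituitary, 0 were above, and Drd2, the dopamine receptor that holds lactotrophs in check, came closest at 566 and 616 against a highest other of 575.4. Of the 6 hypothalamic and posterior pituitary peptides, 0 were above. Pou1f1, a factor of somatotrophs and lactotrophs, and Tbx19, a factor of corticotrophs, were not analysed here.

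Secretory granule and G protein genes did include others that separated the arrays. Of 14 granule genes with a probe set, 2 had both M6mo arrays above all others, beside 2.51% of all probe sets. By median on the other arrays, that share was 41.3% from 10000 up, 11.5% at 3000 to 10000 and 4.02% at 1000 to 3000. Pcsk1n and Gnai2 99596_f_at fall in the first class, and Sst and Gnai2 99598_g_at in the second. Ptprn and Gnai2 99597_at fall in the third. Pcsk1n, an inhibitor of prohormone convertase, read 13098 and 14413 on the M6mo arrays, against a highest other of 12049. Ptprn, a granule membrane protein, read 4881 and 4820 against 4211. The summed intensity of granule genes other than the members was 67990 and 72913, against 55587 to 73103. Sst, the precursor of somatostatin, read 6677 and 5762 against 5077. Gnai2, an inhibitory G protein alpha subunit, had all 3 of its probe sets above, for example 3772 and 3684 on 99597_at against 3196. Over the list of G protein alpha subunits and cyclases, 4 of 30 probe sets had both M6mo arrays above all others, 3 of Gnai2 and 1 of Gnas, and 2 had both below. These 2, named for their position, were Gna13 on 100514_at, at 1043 and 1033 against a lowest other of 1296, and Adcy7, at 479.6 and 479 against 492.3. None of the 7 growth hormone and prolactin target genes lay above.

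Markers of tissue were also compared with the titles, and whether any of them bears on the hormone levels was not tested. Since 2.51% of all probe sets had both M6mo arrays above all others, a count of 0 in a short list is near that share. Hoxb9, a gene of spinal cord position, read 681.6 and 591.8 on the M6mo arrays against a highest other of 447.9, while the 7 Hox genes summed to 5349 and 6065 against 4775 to 6830. Spinal motor neuron genes summed to 12448 and 13630, against 8744 to 13929. Of the lists for pancreatic islet, cerebellum, and liver and choroid plexus, 0 genes lay above. Forebrain genes Tbr1 and Neurod6 were at the floor on both M6mo arrays, and on 12 and 9 of the 14 others. Of 2 blood genes, Hba-a1, a globin of red blood cells, read 24870 and 24266, against 706.2 to 18731 with a median of 14388. Among probe sets with a median of at least 10000 on the others, 41.3% had both M6mo arrays above all others. The other blood gene was Alas2, the first enzyme of heme synthesis in red cells. It read 571.3 and 753.1, against 534.8 to 2644 with a median of 695.2. Th, the enzyme of catecholamine synthesis and a marker of adrenal medulla, read 462.9 and 546.2 against 454.3, and Phox2a, of the same list, was at the floor on both and on 12 of the 14 others. Pnmt, the enzyme that makes adrenaline, read 491.1 and 256.4 on 101719_at, against a median of 650.1 on the others, and 425.5 and 541.9 on 161917_i_at, against a median of 125.6. Of 11 skeletal muscle probe sets, 0 were above, and their median difference was -1.08 beside -0.06 over all probe sets. In bulk tissue, fewer cells of a type and less RNA per cell cannot be told apart.

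Among the other genes of the array, the 10 single-symbol genes outside the group with the largest gap were Ckb, Mtm1, Ptgds, Tuba1c, Rpl41, Mt2, Eef1a2, Erdr1, Mt3 and Nfic, with gaps of 1.32 to 0.61 on the log2 scale. Ckb, brain creatine kinase, read 32249 and 35272 on the M6mo arrays against a highest other of 12919. Ptgds, prostaglandin D synthase of the meninges and glia, read 24707 and 22018 against 11801, and Mt2, a metallothionein, read 25960 and 28575 against 14986. The medians of Ckb, Ptgds and Mt2 on the other arrays were 7330, 5098 and 12758. Both M6mo arrays lay above all others for 11.5% of probe sets with medians of 3000 to 10000. From 10000 up it was 41.3%. The 5 genes whose levels followed Gh most closely over the 16 arrays were Uqcc1, Mt1, Mt2, Uqcrq and Cacng2, at r of 0.85 to 0.80. The gaps and correlations rest on the 2 M6mo arrays and share their arrays with Gh.

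Contrasts that leave out the M6mo sample were tested on the remaining 9 samples. These had served only as the other side of the comparison that set the group. They were 4 other spastic samples, 1 B6C3Fe sample and 4 control samples. Each B6C3Fe and control sample was the mean of arrays with a shared title. Each other spastic sample was 1 array, and the fit weighted all samples alike. A probe set was tested if its mean was above the 40th percentile, which 11 of 13 member probe sets passed, all but Cga 94700_at and Chgb 92842_r_at. limma's test was used, with titled sex as a covariate and Benjamini-Hochberg adjustment over 7453 probe sets.

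In the other spastic samples against the controls, 2 of 11 probe sets changed, both of Gnas and both lower, beside 15.8% of all probe sets (6.91% higher and 8.91% lower). Gnas 93271_s_at was lower by 0.61 on the log2 scale (SE 0.16, limma adjusted p = 0.0315), with values of 9241 to 10207 on the other spastic arrays against 8358 to 23575 on the controls, so that the groups overlapped at 1 control array. Gnas 92672_at was lower by 0.91 (SE 0.27, adjusted p = 0.0475), with 175.5 to 336.8 on the other spastic arrays and 250.7 to 720.5 on the controls. The third Gnas probe set, 102082_at, gave -0.28 (SE 0.23, adjusted p = 0.444). Neither call held with arrays as a random block (adjusted p = 0.0527 for both), and without the 2 spastic samples titled male the adjusted p was 0.198 for 93271_s_at and 0.347 for 92672_at. In that fit 0 of 11 probe sets were called, beside 2.32% of all. The 93271_s_at call also ended without Ctr12moF, without Ctr9moM, or without any 1 of the 4 other spastic samples (adjusted p of 0.0558 to 0.0967). The 92672_at call ended without Ctr12moF, Ctr12moM, Ctr9moM, Spa-sev-3moM, Spa3+moM or Spa2-2moF (adjusted p of 0.0707 to 0.132).

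Gh and Prl were not called, and their values pointed down. Gh differed by -0.69 (95% interval -1.26 to -0.12, adjusted p = 0.0934) and Prl by -1.52 (-3.07 to 0.03, adjusted p = 0.166). Without the control sample Ctr9moM, whose Prl was the lowest of the controls, the adjusted p was 0.0268 for Gh (-0.96) and 0.0448 for Prl (-2.23). Without the 2 spastic samples titled male, Gh gave -0.71 (adjusted p = 0.322), Prl -2.24 (0.198), Chga 92422_at 0.37 (0.338), Chgb 92841_f_at 0.05 (0.89) and Scg2 -0.36 (0.205). Pomc gave -0.18, Cga 162502_f_at -0.38, Gnas 102082_at -0.17 and Chga 162192_f_at -0.06 there, at adjusted p of 0.637 to 0.878. With all samples, Pomc gave -0.04 (SE 0.27) and Cga 162502_f_at -0.30 (SE 0.30). Chga 92422_at gave 0.41 (SE 0.14, adjusted p = 0.0647) and Chgb 92841_f_at 0.31 (SE 0.15, adjusted p = 0.188), and without the control sample Ctr9moF they had adjusted p of 0.0221 and 0.0385. Chga 162192_f_at gave -0.11 and Scg2 -0.03. With the M6mo sample added to the spastic samples, the difference was 0.017 for Gh and -0.25 for Gnas 93271_s_at. That sample set the group, so no call is read from this fit.

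The wider lists in this comparison are given by their counts. Beside them, 15.8% of all probe sets were called, 6.91% higher and 8.91% lower. Of the 5 pituitary hormone genes tested, 0 changed, with a median difference of -0.30 beside -0.03 over all probe sets. Of 11 granule genes tested, 2 were higher and 0 lower. These were Resp18, a granule protein, at 0.73 (SE 0.11, adjusted p = 0.00471), and Ptprn at 0.38 (SE 0.11, adjusted p = 0.0432). Of 17 genes for G protein alpha subunits and cyclases, 2 were higher and 3 lower. Adcy9, an adenylyl cyclase, gave 0.60 on 98356_at (limma adjusted p = 0.00919) but -0.09 on 92527_at (adjusted p = 0.626). Gna11 gave 0.44 (adjusted p = 0.0485). Gna13 gave -0.44 on 100514_at (adjusted p = 0.0362) but -0.06 on 104316_at (adjusted p = 0.843). Gnai1 gave -0.58 and -2.01 on its probe sets (adjusted p = 0.0247 and 0.0218), and the third of the lower genes is Gnas. Of 8 other neuropeptide genes, Sst was higher by 0.56 (adjusted p = 0.00816) and Tac1, the substance P precursor, lower by 0.59 (adjusted p = 0.0437). The list of receptors for pituitary hormones also holds opioid receptors. Of its 5 genes tested, Oprk1, the kappa opioid receptor, was lower by 1.25 (limma adjusted p = 0.0074). Of 5 receptors that regulate the pituitary, Trhr, the thyrotropin-releasing hormone receptor, was lower by 0.72 (adjusted p = 0.0272). Without the 2 spastic samples titled male, 0 genes of these 6 lists were called, beside 2.32% of all probe sets. None of these calls thus held without those samples. Of the remaining lists, Slc18a3 of motor neurons (1.99), Myh4 of skeletal muscle (-3.15 on 98488_at) and Hba-a1 of blood (-0.81) were called. The other Myh4 probe set, 161545_r_at, gave 0.14 (limma adjusted p = 0.654). No gene was called of the transcription factors, hypothalamic peptides, hormone targets, adrenal medulla, pancreatic islet, cerebellum and spinal cord position lists. For the forebrain and for liver and choroid plexus no gene could be tested. Without those 2 samples, Slc18a3 (2.20, adjusted p = 0.012), Myh4 (-2.74, adjusted p = 0.0358) and Hba-a1 (-1.39, adjusted p = 0.00656) were called too, and so was Alas2 (1.55, adjusted p = 0.0119).

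In B6C3Fe against controls, 0 of 11 member probe sets were called at an adjusted p under 0.05, beside 0.188% of all probe sets (0.0671% higher and 0.121% lower), or 14 of 7453 (1067 had an unadjusted p under 0.05). Chgb 92841_f_at gave the lowest adjusted p of the group, at -1.07 (SE 0.25, adjusted p = 0.107), with both B6C3Fe arrays (3441 and 3329) below all 8 control arrays (5405 to 9837). The test has 1 B6C3Fe sample, assumed to vary like the others. Fitted on every array the adjusted p was 0.0211 with a random block and 0.0102 with the letter as a block. Chga 162192_f_at, not called, gave -0.62 (SE 0.24). Gh gave -0.61, Prl 0.94 and Pomc -0.81, with intervals that include 0.

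Between 12 and 9 months among the controls, 0 of 11 member probe sets and 0 of all 7453 were called by limma (395 had an unadjusted p under 0.05). This set only Ctr12moF and Ctr12moM against Ctr9moF and Ctr9moM. Gh differed by 0.66 (95% interval -0.05 to 1.37) and Prl by 0.86 (-1.41 to 3.12), both higher at 12 months. Chga 92422_at gave -0.45 (SE 0.14, adjusted p = 0.885).

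**Figure D4:**
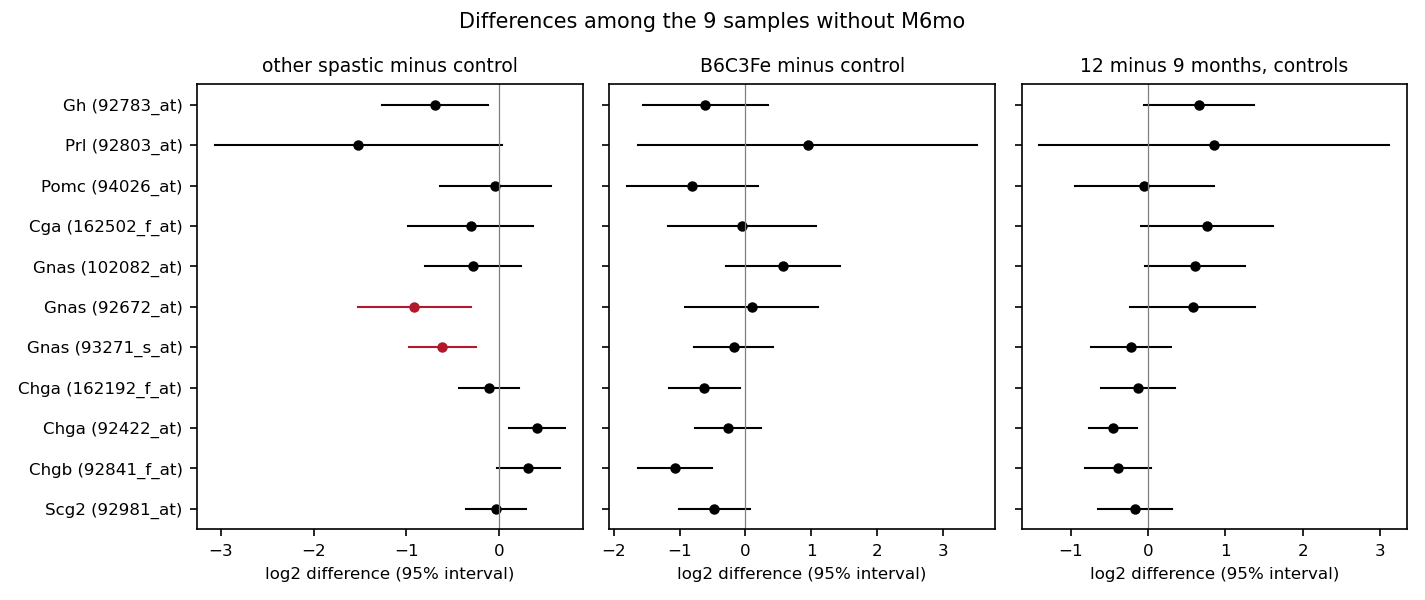
Log2 differences with 95% intervals of the 11 tested probe sets, from left to right for other spastic minus control, B6C3Fe minus control and 12 minus 9 months among controls, over the 9 samples without M6mo. Red marks the 2 Gnas probe sets called at an adjusted p under 0.05, and the Prl interval is the widest in each panel.

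In order of mean Gh level, the groups ran from M6mo at 13.23 on the log2 scale through control (9.997 ± 0.54, SD, n = 4 samples) and B6C3Fe at 9.37 (1 sample) to the other spastic samples (9.30 ± 0.28, n = 4), and among the last 3 each overlapped its neighbour's range. The Prl order was M6mo at 13.03, B6C3Fe at 9.03, control (8.40 ± 1.47, n = 4) and other spastic (6.89 ± 1.11, n = 4), where B6C3Fe lay inside the range of the controls and the ranges of control and other spastic samples overlapped. For Gnas 93271_s_at the order was M6mo at 15.27, control (13.86 ± 0.36), B6C3Fe at 13.66 and other spastic (13.25 ± 0.07). For Scg2 the order was control at 11.94, other spastic at 11.90, M6mo at 11.75 and B6C3Fe at 11.57, and the range of the other spastic samples, 11.63 to 12.33, held both the controls and M6mo.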

How the data were processed

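The authors deposited 1 linear intensity for each of 12488 probe sets on 16 arrays. Their software is not named in the sources used; the mean after trimming 2% at each end was 800.4 to 800.5 on every array, so no further scaling was applied. Values below the 20th percentile of all, 60.9 (5.93 on the log2 scale), were raised to that floor before taking log2, which understates differences near it. The 66 control probe sets were left out. Genes were named from the platform annotation (10833 probe sets with 1 symbol, 396 with several, 1193 with none). Arrays of 1 title, lettered a and b, were averaged (consensus correlation 0.14). The M6mo sample was left out of every fit except a variant that added it to the spastic samples. limma 3.58.1 in R 4.3.3 (lmFit, eBayes with a trend) was fitted with group and titled sex, 2-sided, on 7453 probe sets above the 40th percentile of means, with Benjamini-Hochberg adjustment and calls at adjusted p under 0.05; the fit was tested on simulated data. Lists, values and plots used Python 3.11.15 with pandas 2.3.3. The members and the 18 gene lists were chosen with earlier results of these data known. Named genes were all member probe sets; per list, up to 4 genes with the largest gap and up to 4 called genes per contrast; the 10 other genes with the largest gap; and the 5 with the highest correlation with Gh. The floor, filter, scaling, averaging, trend, sex term and samples were varied, with effects given in the closing observations; leaving out the 2 spastic samples titled male was added after the data were seen. Depth does not apply to arrays, and the number of arrays limits the precision.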

Additional observations from a re-analysis of the deposited data

Results flagged for a closer look

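In 37 checks of groups of 4 to 10 samples, of which chance alone would flag about 1 in 20, the M6mo sample stood far from the other 4 spastic samples for Gh (its gap was 0.877 of the group's whole range), Prl (0.716), Cga 94700_at (0.864) and Gnas 93271_s_at (0.932). These are the genes and arrays by which the group was chosen. For Chgb 92842_r_at the control sample Ctr12moF lay apart from the other controls (0.863), on a probe set at the floor on many arrays.

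Female minus male controls pointed in opposite directions at the 2 ages for both pituitary hormones of the somatotroph and lactotroph lines. For Gh the log2 difference was 0.72 at 9 months and -0.62 at 12 months. For Prl it was 3.34 at 9 months and -0.63 at 12 months. Each value is 1 sample against 1, and the difference between ages was not tested.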

How the results depend on the processing

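Limits: 1 sample per group for B6C3Fe and M6mo, 4 per other group, and 2 at each control age. Values near the floor are a further limit, since they carry no order. Of the settings tried, the count of 1179 called probe sets (other spastic minus control) fell outside 1.5 times with no filter on low values (764), without the 2 spastic samples titled male (173), and over single left-out samples (587 to 1190; 587 without Ctr9moM, 623 without Ctr12moF, 654 without Spa1-2moF, 698 without Ctr12moM and 734 without Spa3+moM). B6C3Fe minus control (14) was 232 with no filter, 55 with quantile normalization, 251 with a random block, 440 with the letter as a replicate block, 54 without the sex term and 3 to 29 over single left-out samples (3 without Ctr9moM, 5 without Spa1-2moF, 9 without Ctr12moF, 22 without Spa3+moM and 29 without Ctr12moM). The letter replicate block gave 1197 called for other spastic minus control, and 2 for 12 minus 9 months. That contrast, with 0, gave 21 with no filter, 2 with a random block and 0 to 1 over left-out samples (1 without Spa3+moM). The number of member probe sets above all others, 6, was 6 to 8 with 1 M6mo array alone. The cause was not tested. Among the member calls in other spastic minus control, Gnas 93271_s_at and 92672_at also lost theirs with no filter (adjusted p of 0.124 and 0.148), with the letter block (0.106 and 0.125) and without a trend (0.0588 and 0.057), and 92672_at with quantile normalization (0.068). The fit with the M6mo sample added holds the arrays that set the group, so no call is read from it.

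Signs turned for these log2 differences. Pomc in other spastic minus control was 0.028 with the floor at the 40th percentile, 0.13 with quantile normalization, 0.25 with the M6mo sample added and -0.18 to 0.16 over left-out samples; Pomc in 12 minus 9 months was 0.057 with that floor and -0.55 to 0.45. Gh with the M6mo sample among the spastic samples was 0.017. Cga 162502_f_at in B6C3Fe minus control was 0.032 without the sex term and -0.31 to 0.15. Over left-out samples, Scg2 ran from -0.16 to 0.092 (other spastic) and -0.47 to 0.14 (12 minus 9 months), Chga 162192_f_at from -0.21 to 0.014 (other spastic) and -0.28 to 0.033 (12 minus 9 months), Gnas 93271_s_at from -0.63 to 0.19 (12 minus 9 months) and -0.43 to 0.053 (B6C3Fe), Gnas 92672_at from -0.030 to 0.24 (B6C3Fe), and Prl from -0.12 to 1.58 (B6C3Fe) and -0.95 to 2.66 (12 minus 9 months). For M6mo beside the others, Chga 162192_f_at was -0.23 and 0.51 with each array alone. Beside the other spastic arrays alone, Gnas 92672_at was 0.24 in place of -0.42, and Gnas 102082_at 0.12 in place of -0.15. After quantile normalization, M6mo minus the others was 0.016 for Gnas 102082_at. For Chgb 92842_r_at it was 0.08 in place of -0.14. The letter a and b does not mark a shared animal in the titles, so the block adds no pairing. The fit with the letter takes arrays of a shared title as independent, so its counts and p-values overstate the replication.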

Other observations

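Some probe sets without a single gene symbol, chosen after their values were seen, separated the M6mo arrays from the others by more than most named genes. Probe set 104228_at read 334.5 and 339.4 on the M6mo arrays, against a highest other of 68.83, and its correlation with Gh over the 16 arrays was 0.91. Probe sets 102818_at and 98577_f_at read 625.1 and 519.7 against 180.6, and 1122 and 945 against 339.2. What they measure is not named here.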
